A study of Mus musculus with 6 samples.

Results

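The genes described here are 59 genes of mitosis, taken from a list of names: regulators of mitotic entry, spindle proteins and motors, kinetochore proteins, the spindle checkpoint and the machinery of anaphase, the chromosomal passenger complex and cytokinesis proteins, and proteins that shape mitotic chromosomes. Of these, 58 were measured among 18194 genes, each by the probe set with the highest mean log2 intensity over all arrays, and Ccnb1 was not analysed here. Their RNA was measured in leukemias of the mouse that arose from MLL-ENL, an oncogene in which the chromatin regulator MLL is joined to ENL, a protein of transcription elongation. The starting cells were C57BL/6 bone marrow with the Runx1 gene intact (3 arrays, labelled Control) or excised (3 arrays, labelled Runx1-KO). They received MLL-ENL by transduction, were grafted into congenic hosts, and each array holds the leukemic cells of an independent leukemia, taken once its host was moribund. MLL-ENL was thus carried by both groups. Runx1 encodes a transcription factor of blood development. The agent that excised Runx1, the age of the mice and the share of host cells left among the leukemic cells are not given in the sources used here.

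Cells enter mitosis when the kinase Cdk1, bound to A and B cyclins and released from inhibition by Cdc25 phosphatases, becomes active. Microtubules, with their motors and the Aurora and Polo kinases, then build the spindle, kinetochores attach chromosomes to it, and the spindle checkpoint holds back the anaphase-promoting complex until every kinetochore is attached. Once released, that complex destroys securin and cyclin B, separase cuts cohesin, and the cell divides behind the central spindle. Most of these genes are switched on together late in the cell cycle, by the MuvB complex with MYB proteins and by Foxm1, so that their RNA is abundant in dividing cells and low in resting ones.

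Runx1 itself stood at 1128, 1573 and 1629.5 in the leukemias labelled Runx1-KO 1, 2 and 3 and at 680.3, 1021 and 850.0 in Control 1, 2 and 3, and all 6 of its probe sets were higher in the former (log2 difference 0.76 ± 0.25, limma adjusted p = 0.322). Where these probe sets lie relative to the excised part was not known, so Runx1 did not check the labels, and every direction below is that of the arrays as labelled. The Y-linked gene Eif2s3y had no signal above background in Runx1-KO 1, 2 or 3 and stood at 684, 638 and 707 in Control, while Xist, which the inactive X chromosome expresses, stood at 1624, 1857 and 1895 and at 331, 85.4 and 25.3. The sex of the cells and the genotype thus cannot be told apart, and Control 1 carried more Xist signal than the other Controls. The background limit of an array, set by the brightest of 27 control probe sets that had no target in the sample, ran from 14.1 to 22.5, and 56 of the 58 mitotic genes lay above it on all 6 arrays. Gapdh signal at its 3' end over that at its 5' end, which grows as RNA degrades, had a ratio of 7.10 in Runx1-KO 1 and 2.67 to 3.02 elsewhere. Of 11 erythroid markers, 10 were above background in Control 1 and 1 to 4 in the other arrays. Of all 18194 genes, 16 passed at an adjusted p under 0.05 (limma, Benjamini-Hochberg), which is 0.0879%, and 10 of them, or 0.055%, had the lower mean in Runx1-KO.

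Mitotic genes stood lower in the arrays labelled Runx1-KO as a set, without any of them passing the test. Most of these genes are switched on together, so the counts below are not independent observations. They describe 3 leukemias per group, and the shares of all genes beside them are no test. Of 58 genes, 55 had a log2 difference (Runx1-KO minus Control) below 0, where 50.8% of all genes did, and the median was -0.64, against -0.01 over all genes. In 35 of the 58 every array labelled Runx1-KO lay below every Control array, which is 60.3%, where 11.7% of all genes did so. In 0 of the 58 was every array labelled Runx1-KO the higher one, where 9.17% of all genes showed that. The genes lower at an unadjusted p under 0.05 numbered 17, or 29.3%, where 7.01% of all genes were, and 0 were higher at that level, where 5.62% were. After limma's adjustment over all genes 0 of 58 passed, where 0.0879% of all genes did, and the lowest adjusted p was 0.251, that of Ttk. The count of 17 was 5 without Control 1 (4.59% of all genes), 9 without Control 2 (5.17%), 10 without Control 3 (4.90%), 13 without Runx1-KO 2 (6.75%), 18 without Runx1-KO 3 (5.23%) and 24 without Runx1-KO 1 (9.55%). RNA of a whole leukemia was measured, so fewer dividing cells and less mitotic RNA per dividing cell cannot be told apart.

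One leukemia, Runx1-KO 2, lay farther from Control than the other two. Runx1-KO 2 was the lowest of the 6 arrays for 55 of the 58 genes, where it was the lowest for 23.9% of all genes. Its median shift from the Control mean was -1.14 on the log2 scale, against -0.27 in Runx1-KO 1 and -0.32 in Runx1-KO 3, while the 3 Control arrays lay between -0.04 and 0.07. Over all genes the 6 arrays lay between -0.03 and 0.02 by the same measure. Without Runx1-KO 2 the median difference of the mitotic genes was -0.33, 0 passed the adjusted test (0.0165% of all genes did, and 13 of the 58 had an unadjusted p under 0.05), 50 of 58 were below 0, and in 35 the 2 remaining arrays labelled Runx1-KO lay below all 3 Control arrays, or 60.3% where 17.2% of all genes did. The median was thus below 0 in each of the 3 leukemias labelled Runx1-KO, and farthest from it in Runx1-KO 2. The Control arrays were close to each other, with a median SD of 0.14 per gene on the log2 scale, against 0.51 among the arrays labelled Runx1-KO. The spread was wider among the latter for 56 of the 58 genes, where it was for 62.4% of all genes. Control 1 was the highest of the 6 arrays for 27 of the 58 genes, or 46.6%, where it was for 16.8% of all genes.

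**Figure D1:**
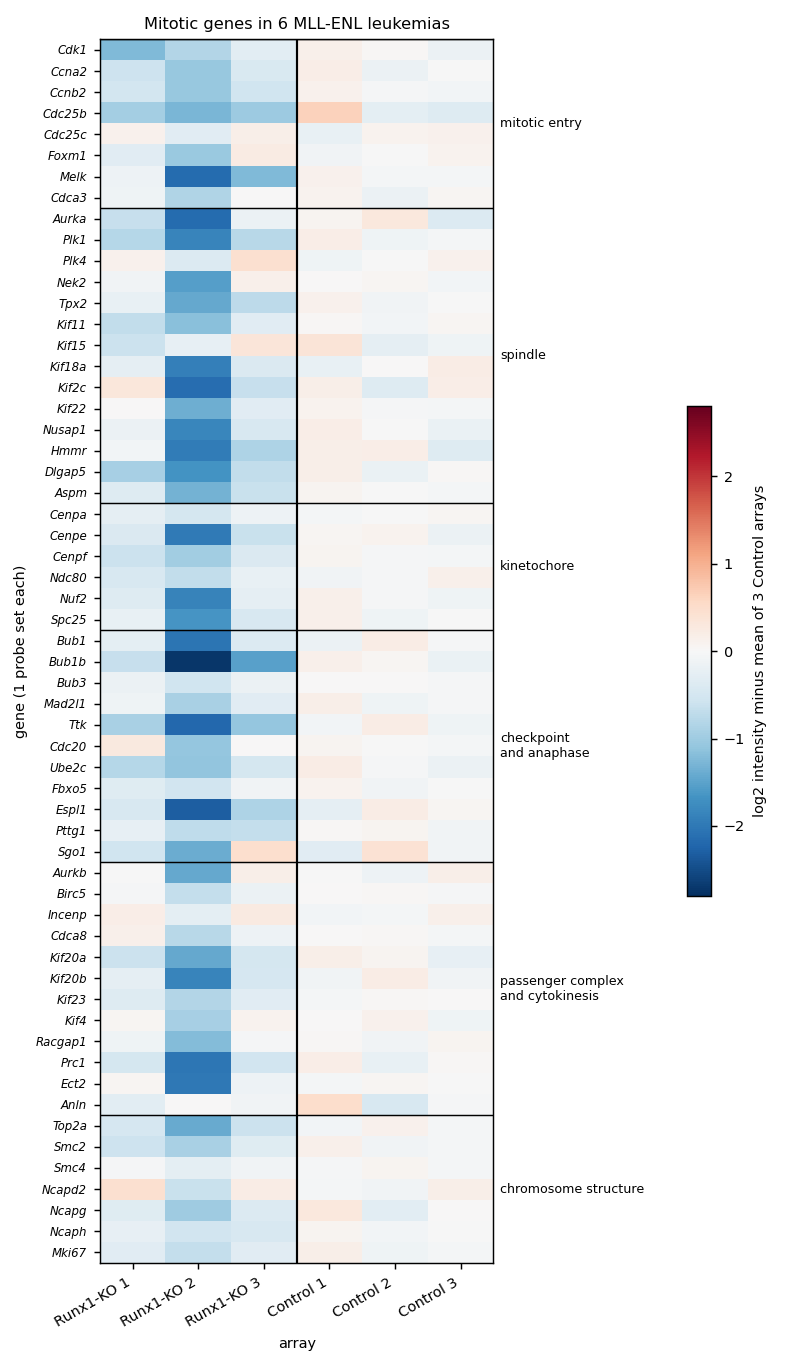
Log2 intensity of 58 mitotic genes (rows, grouped by role) on 6 arrays (columns), each minus the gene's mean over the 3 Control arrays; blue is lower and red higher. Runx1-KO 2 is the lowest array for 55 of the 58 genes, and Runx1-KO 1 and Runx1-KO 3 are mostly pale blue, with median shifts of -0.27 and -0.32.

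Letters shared by the promoters of the mitotic genes were counted, which describes the class of genes listed and not these arrays. RefSeq promoter windows of the build GRCm38.p6, from 250 bases before to 50 after a start, were matched for 49 of the 58 genes (52 windows). The hexamer TTTGAA, the usual form of the cell cycle genes homology region that MuvB binds, was found on either strand in 38 of 52 windows, or 73.1%, against 17.9% of all 32851 windows. Within 50 bases of the start it was found in 65.4% of the windows of these genes and 5.14% of all windows. TTCGAA, another form of it, was found in 9.62% against 1.56%. The pentamer CCAAT, read by the factor NF-Y, was found in 73.1% against 37.4%, and more than once in 48.1% against 11.7%. CCAAT together with either hexamer was found in 36 windows, or 69.2%, against 7.52% of all windows. Of the genes whose groups did not overlap 71.0% held TTTGAA (22 of 31), and of those whose groups overlapped 72.2% did (13 of 18). Windows were not matched for Aurkb, Ccna2, Cdc25c, Dlgap5, Foxm1, Incenp, Kif20a, Smc4 and Tpx2. A match is a description of letters and not a measured binding site.

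The stretch from 150 bases before to 30 after the start is printed for 8 genes, 5′ to 3′ on the strand of the gene, with the 3 motifs and their reverse complements in capitals. The first 6 are genes of 5 roles whose groups did not overlap, and Cdc20 and Plk4 are shown because their groups overlapped.
Cdk1 (chr10:69352883-69353062, minus strand): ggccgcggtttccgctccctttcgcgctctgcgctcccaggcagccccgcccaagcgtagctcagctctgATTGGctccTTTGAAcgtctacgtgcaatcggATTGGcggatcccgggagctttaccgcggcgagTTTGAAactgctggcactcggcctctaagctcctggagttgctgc
Ccnb2 (chr9:70421525-70421704, minus strand): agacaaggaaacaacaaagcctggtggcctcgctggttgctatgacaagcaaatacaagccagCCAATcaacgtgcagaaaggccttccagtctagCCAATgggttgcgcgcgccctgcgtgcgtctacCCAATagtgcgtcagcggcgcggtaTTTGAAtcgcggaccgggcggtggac
Ttk (chr9:83834539-83834718, plus strand): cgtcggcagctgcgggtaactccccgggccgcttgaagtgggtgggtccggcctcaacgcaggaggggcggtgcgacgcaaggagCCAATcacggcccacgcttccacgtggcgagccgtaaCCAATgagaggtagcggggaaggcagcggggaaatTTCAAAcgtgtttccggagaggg
Cenpf (chr1:189688057-189688236, minus strand): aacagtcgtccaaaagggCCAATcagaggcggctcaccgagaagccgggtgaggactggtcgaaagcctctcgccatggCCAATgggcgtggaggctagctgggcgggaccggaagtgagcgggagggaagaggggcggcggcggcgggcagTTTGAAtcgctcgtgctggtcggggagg
Kif23 (chr9:61946770-61946949, minus strand): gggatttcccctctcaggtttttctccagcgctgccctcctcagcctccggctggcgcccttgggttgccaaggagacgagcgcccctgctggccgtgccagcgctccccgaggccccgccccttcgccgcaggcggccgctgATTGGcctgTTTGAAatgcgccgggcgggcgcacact
Top2a (chr11:99024160-99024339, minus strand): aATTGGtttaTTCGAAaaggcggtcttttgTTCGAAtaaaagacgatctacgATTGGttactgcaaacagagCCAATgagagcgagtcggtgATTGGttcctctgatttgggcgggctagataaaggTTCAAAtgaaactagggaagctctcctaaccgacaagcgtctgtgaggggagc
Cdc20 (chr4:118437314-118437493, minus strand): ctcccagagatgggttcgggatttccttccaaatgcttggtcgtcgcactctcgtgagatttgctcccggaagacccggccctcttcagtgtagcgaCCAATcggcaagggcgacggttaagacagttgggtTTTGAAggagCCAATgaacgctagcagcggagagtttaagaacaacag
Plk4 (chr3:40799801-40799980, plus strand): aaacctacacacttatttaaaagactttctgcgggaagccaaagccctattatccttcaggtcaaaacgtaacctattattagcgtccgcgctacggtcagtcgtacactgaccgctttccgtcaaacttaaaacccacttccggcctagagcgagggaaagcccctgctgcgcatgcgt
All but that of Plk4 hold TTTGAA, Cdk1 at 2 places and the other 6 at 1, and Top2a also holds TTCGAA at 2 places. Cdc20, whose groups overlapped, holds TTTGAA and CCAAT as Cdk1 does, while Plk4 holds none of the 3 motifs. The 8 genes are a selection, so they do not show how motifs and overlap go together. Over all matched genes, 71.0% of those without overlap and 72.2% of those with overlap held TTTGAA.

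Among the regulators of mitotic entry, 8 of 8 measured genes had a log2 difference below 0, with a median of -0.70, or -0.52 without Runx1-KO 2. Cdk1, the kinase that starts mitosis, had an intensity of 286, 382 and 551 in Runx1-KO 1, 2 and 3 and of 742, 697 and 600.2 in Control 1, 2 and 3. The groups did not overlap, and here Runx1-KO 1 and not Runx1-KO 2 was the lowest array. The log2 difference was -0.79 ± 0.28 (SE, n = 3 per group), or 1.73-fold lower, with a limma adjusted p of 0.345, and it was -0.77 without Runx1-KO 2. Ccna2, cyclin A, stood at 724, 515 and 801 against 1222, 957 and 1060.3 (-0.69 ± 0.24, adjusted p = 0.338). Ccnb2, a B cyclin, stood at 602, 413 and 579 against 932, 833 and 813 (-0.71 ± 0.22, adjusted p = 0.30). For both cyclins every array labelled Runx1-KO lay below every Control array, and none of the differences passed.

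The phosphatase gene Cdc25b, whose product activates Cdk1, stood at 52.6, 42 and 50.4 in the leukemias labelled Runx1-KO and at 159.7, 83.8 and 79.5 in Control. The 3 arrays labelled Runx1-KO were close together and Control 1 was the highest, at a log2 difference of -1.09 ± 0.31, or 2.12-fold lower (adjusted p = 0.287). Without Control 1 the Cdc25b difference was -0.76. Its relative Cdc25c, with a log2 difference of -0.01, had nearly the same mean in both groups, and 0.15 without Runx1-KO 2. Foxm1, the transcription factor that activates many mitotic genes, stood at 92.2, 56 and 136 against 109, 114 and 125. Its groups overlapped, since Runx1-KO 3 was the highest of all 6 arrays, and the difference of -0.38 ± 0.34 (adjusted p = 0.683) became -0.05 without Runx1-KO 2. Of the 4 Foxm1 probe sets, 2 were lower and 2 higher, from -0.38 to 0.17. The kinase gene Melk and Cdca3, a substrate adaptor that promotes the loss of the Cdk1 inhibitor Wee1, had differences of -1.18 and -0.32, which were -0.69 and -0.05 without Runx1-KO 2.

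**Figure D2:**
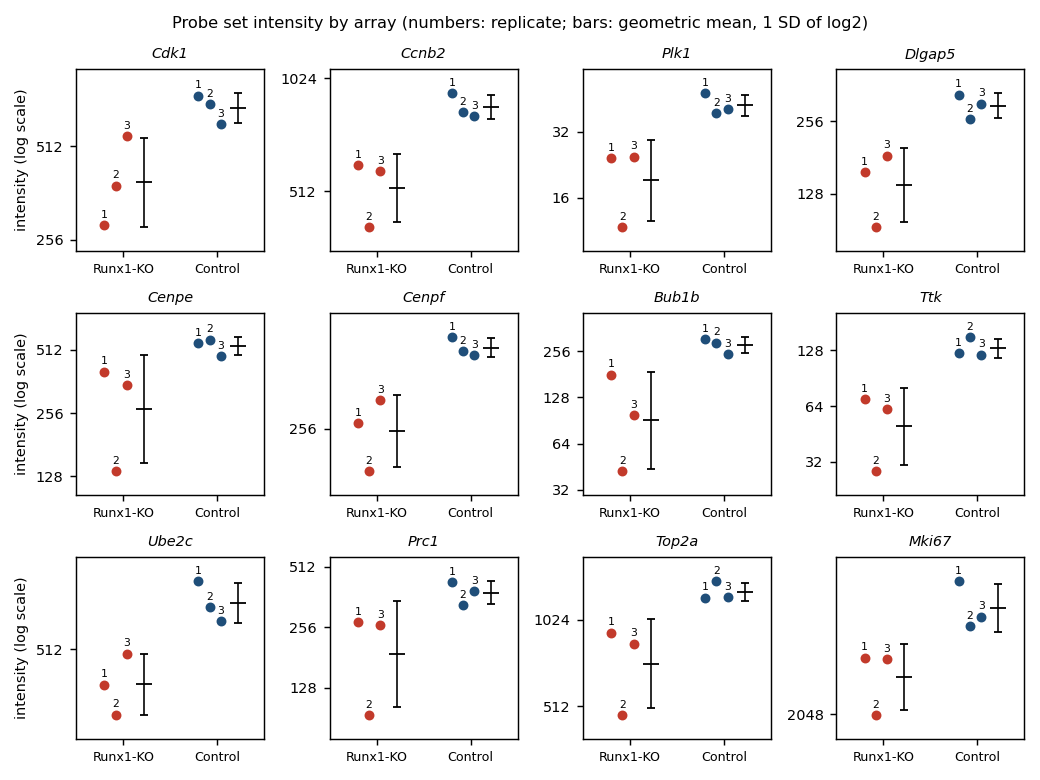
Probe set intensity of 12 mitotic genes on each array, on log axes that differ between panels and do not start at 0; points are arrays numbered by replicate, and bars give the geometric mean and 1 SD of log2 (n = 3 per group). The 12 genes are a selection without overlap between the groups, so in all 12 the points labelled Runx1-KO lie below the Control points. Of all measured mitotic genes 60.3% show this, and of all genes 11.7%. Foxm1, Cdca8 and Smc4, whose groups overlap, are not shown. In 11 of the 12 genes, Cdk1 being the exception, Runx1-KO 2 is the lowest.

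Spindle genes had the lowest median among the 6 roles, at -0.80 over 14 genes, of which 13 were below 0, and -0.37 without Runx1-KO 2, when mitotic entry had the lowest, at -0.52. No overlap between the groups was found for 6 of the 14, or 42.9%, where 11.7% of all genes had none in this direction. Dlgap5, which bundles microtubules near chromosomes, stood at 157, 93.1 and 184 in Runx1-KO 1, 2 and 3 against 330.4, 261 and 302 in Control 1, 2 and 3. All 3 arrays labelled Runx1-KO lay well below Control, a log2 difference of -1.09 ± 0.30, or 2.13-fold lower (adjusted p = 0.264). The other Dlgap5 probe set was lower by less, at -0.54. Kif11, the motor that pushes the spindle poles apart, stood at 774, 551 and 1001 against 1279, 1175 and 1291, again without overlap (-0.73 ± 0.26, adjusted p = 0.342).

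Plk1, the Polo kinase that acts from centrosome maturation to cytokinesis, was a dim probe set, at 24.3, 11.8 and 24.7 against 48.1, 38.9 and 40.7. It was below the background limit in Runx1-KO 2, its signal being above background in 2 of 3 leukemias labelled Runx1-KO. With that value raised to the limit it was at least 1.86-fold lower (fitted difference -1.14 ± 0.33, adjusted p = 0.287). Without Runx1-KO 2 the difference was -0.79, or 1.73-fold lower. The kinesin gene Kif18a, whose product limits the length of spindle microtubules, was also below background in Runx1-KO 2 and at least 1.39-fold lower (fitted difference -0.85 ± 0.46). Without that array its difference was -0.33, or 1.26-fold lower. Plk4, the kinase that licenses centriole duplication, had nearly the same mean in both groups. Its intensities were 307, 214 and 379.7 against 258, 278 and 307, a log2 difference of 0.06 ± 0.26. Of its 3 probe sets 2 were lower, with differences from -0.30 to 0.06. Its Runx1-KO 3 value was the highest of the 6 and its Runx1-KO 2 value the lowest. The other members, Aurka, Nek2, Tpx2, Kif15, Kif2c, Kif22, Nusap1, Hmmr and Aspm, had differences from -0.99 in the Aurora kinase gene Aurka to -0.16 in the kinesin gene Kif15. Without Runx1-KO 2 most moved towards 0, Aurka to -0.41, Hmmr from -0.97 to -0.47, Kif2c from -0.82 to -0.16, Nusap1 from -0.81 to -0.31, Tpx2 from -0.80 to -0.47, Aspm from -0.77 to -0.49, Kif22 from -0.56 to -0.15 and Nek2 from -0.50 to 0.02.

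All 6 kinetochore genes were lower without overlap between the groups, where 11.7% of all genes were. Their median difference was -0.71, or -0.33 without Runx1-KO 2. Cenpe, the motor that carries chromosomes towards the spindle equator, stood at 403, 136 and 347 in the leukemias labelled Runx1-KO and 553, 573 and 478 in Control. Runx1-KO 2 had by far the lowest value, and the log2 difference was -0.998 ± 0.43 (adjusted p = 0.408), or -0.51 without that array. Cenpf, a large protein of the outer kinetochore, was more even, at 264, 204 and 299.8 against 422, 392 and 382 (-0.66 ± 0.21, adjusted p = 0.314). Ndc80, which with Nuf2 and Spc25 forms the complex that grips microtubules, stood at 259, 219.6 and 309 against 332, 346 and 395 (-0.45 ± 0.21, adjusted p = 0.424). Its partners Nuf2 and Spc25 had differences of -0.83 and -0.77, which were -0.31 and -0.33 without Runx1-KO 2. Cenpa, the histone variant that marks the centromere, stood at 351, 299 and 378 against 405, 418 and 432, a difference of -0.29 ± 0.18 (adjusted p = 0.544).

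Checkpoint and anaphase genes were all below 0 (11 of 11, median -0.53, or -0.33 without Runx1-KO 2 and -0.95 without Runx1-KO 3), and 9 of them, or 81.8%, did not overlap between the groups, against 11.7% of all genes. Ttk, the kinase that starts the checkpoint signal at unattached kinetochores, stood at 69.6, 28.7 and 61.8 in the arrays labelled Runx1-KO against 124, 151 and 122 in Control. The highest of the 3 arrays labelled Runx1-KO was well below the lowest Control array, at a log2 difference of -1.40 ± 0.37, or 2.64-fold lower (adjusted p = 0.251), and -1.002 without Runx1-KO 2. The other Ttk probe set was lower by less, at -0.54. Bub1b, which encodes the checkpoint protein BubR1, had the largest difference of the 58 genes, -1.63 ± 0.52, or 3.09-fold lower (adjusted p = 0.309), and -1.08 without Runx1-KO 2. Its intensities were 181, 42.5 and 97.5 against 308, 292 and 246, so the 3 leukemias labelled Runx1-KO differed from each other more than the Controls did. Of its 3 probe sets 2 were lower and 1 was not, with differences from -1.63 to 0.13. Bub3, the binding partner of Bub1 and BubR1, stood at 1167, 888 and 1158 against 1313, 1315 and 1284, a much smaller difference of -0.30 ± 0.19 with all 5 probe sets lower, and -0.17 without Runx1-KO 2.

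Of the genes that act at anaphase, Ube2c, the ubiquitin-conjugating enzyme of the anaphase-promoting complex, stood at 402, 328 and 497 against 814, 683 and 622. The groups did not overlap, at -0.80 ± 0.23 (adjusted p = 0.287) and -0.65 without Runx1-KO 2. Espl1, the protease separase, and Pttg1, its inhibitor securin, had differences of -1.21 and -0.53, which were -0.66 and -0.45 without Runx1-KO 2. Cdc20, the activator of the anaphase-promoting complex, stood at 597, 231 and 497 against 518, 485 and 473. It was the highest of all 6 arrays in Runx1-KO 1 and the lowest in Runx1-KO 2, so the difference of -0.26 ± 0.37 changed to 0.15 without Runx1-KO 2. The remaining genes, Bub1, Mad2l1, Fbxo5 and Sgo1 (listed as Sgol1), had differences from -0.90 in the checkpoint kinase gene Bub1 to -0.33 in Fbxo5, an inhibitor of the anaphase-promoting complex. Without Runx1-KO 2, Bub1 stood at -0.33, Mad2l1 at -0.22, Fbxo5 at -0.22 and Sgo1 at -0.04.

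**Figure D3:**
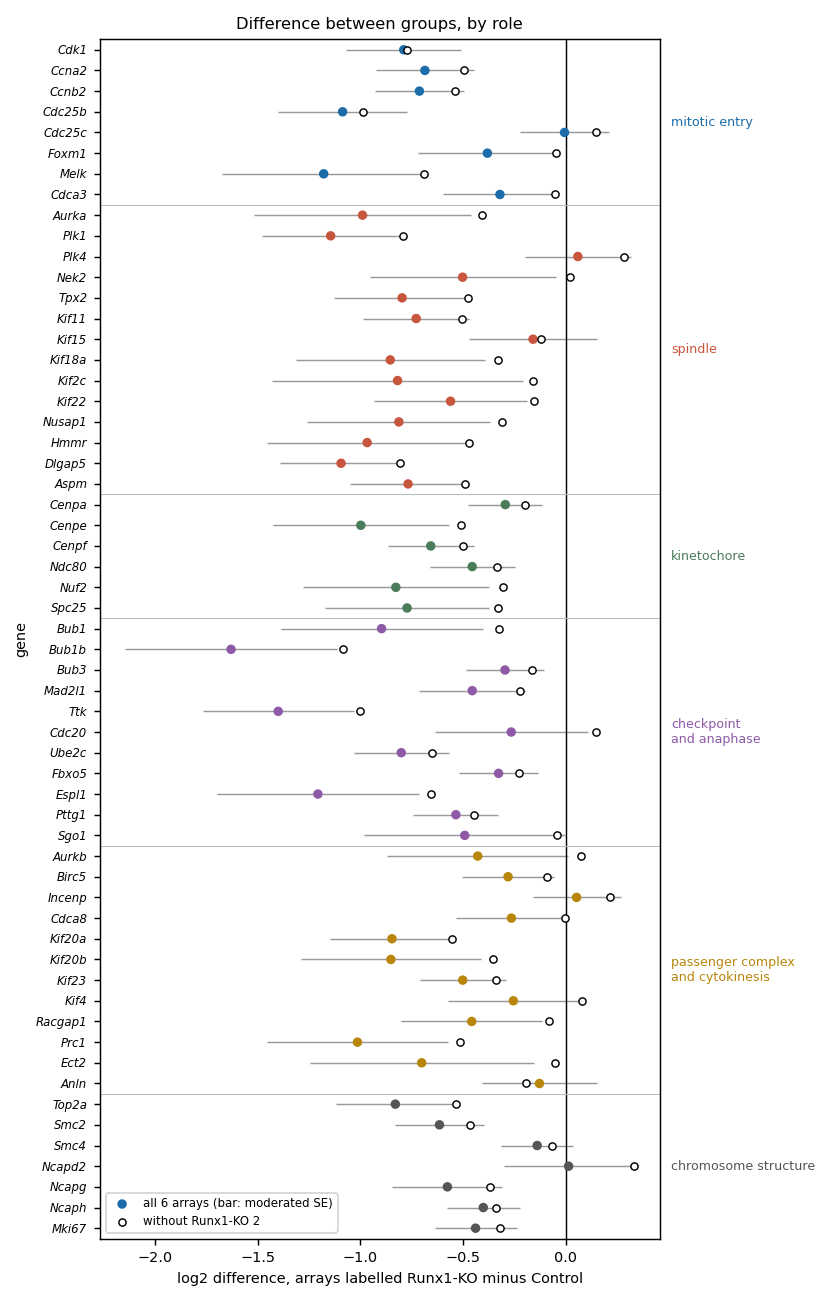
Log2 difference of each of 58 mitotic genes, arrays labelled Runx1-KO minus Control, with filled points and bars for all 6 arrays (moderated SE) and open points without Runx1-KO 2. Of the filled points 55 lie left of 0, and of the open points 50 do, at a median of -0.33 instead of -0.64.

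Genes of the passenger complex and of cytokinesis had, of the 6 roles, the median nearest to 0 once Runx1-KO 2 was left out. Their median difference was -0.44 over 12 genes, 11 below 0, and -0.09 without that array, and in 4 of 12, or 33.3%, the groups did not overlap, against 11.7% of all genes. Kif20a, a motor of the central spindle, stood at 239, 136 and 259.5 against 408, 386 and 310.0, with all 3 arrays labelled Runx1-KO below Control (-0.85 ± 0.30, adjusted p = 0.344), or -0.55 without Runx1-KO 2. Prc1, which crosslinks the microtubules of the central spindle, stood at 269.8, 93.7 and 262 against 428, 330.0 and 386 (-1.01 ± 0.44, adjusted p = 0.412), or -0.51 without Runx1-KO 2. Kif23, the motor subunit of centralspindlin, stood at 445, 322 and 459.9 against 554, 587 and 575 (-0.50 ± 0.21, adjusted p = 0.398). In each of the 3 genes the groups were apart, and the gap was widest in Runx1-KO 2.

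The 4 genes of the passenger complex, which corrects faulty attachments and then moves to the central spindle, showed less. Cdca8, which encodes borealin, stood at 3241, 1716 and 2666 against 2992, 3039.7 and 2823, so that only Runx1-KO 2 lay clearly apart from the rest and Runx1-KO 1 was the highest array. Its difference of -0.26 ± 0.27 (adjusted p = 0.729) was close to 0 without Runx1-KO 2. The kinase gene Aurkb and the survivin gene Birc5 had differences of -0.43 and -0.28, which were 0.07 and -0.09 without that array. Incenp, the scaffold of the complex, was slightly above 0 at 0.05 ± 0.21, with 3 of its 5 probe sets lower. Of the others, Ect2, the exchange factor that activates RhoA for furrowing, stood at 279.8, 67.8 and 244 against 261, 283 and 269.5, its Runx1-KO 1 and 3 values lying close to Control, at a difference of -0.70, or -0.05 without Runx1-KO 2. Anln, an actin-binding protein of the contractile ring, was the only one of the 58 genes in which no array labelled Runx1-KO lay below all Controls (182, 223 and 207 against 311, 162 and 217). Kif20b, Kif4 and Racgap1 had differences of -0.85, -0.25 and -0.46, which were -0.36, 0.08 and -0.08 without Runx1-KO 2.

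Among the genes that shape mitotic chromosomes, 6 of 7 were below 0, with a median of -0.44, or -0.34 without Runx1-KO 2. Top2a, the topoisomerase that untangles sister chromatids, stood at 922, 478 and 844 in the leukemias labelled Runx1-KO and 1220.3, 1391 and 1228 in Control. The groups were apart, at -0.83 ± 0.29, or 1.78-fold lower (adjusted p = 0.339), and -0.53 without Runx1-KO 2. Of its 3 probe sets 1 was higher, at 0.37. Mki67, the proliferation antigen that coats mitotic chromosomes, stood at 2627, 2042 and 2613 against 3677, 3015 and 3148 (-0.44 ± 0.20, or 1.36-fold lower, adjusted p = 0.427), also without overlap.

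The condensin complex, which compacts chromosomes, was uneven. Smc2, one of its ATPase subunits, stood at 613, 489 and 722 against 1019, 862 and 882, with no overlap and 5 of 5 probe sets lower (-0.61 ± 0.22, adjusted p = 0.339). Smc4, the other ATPase, stood at 2885, 2438 and 2772 against 2899.7, 3123 and 2870.2, where Runx1-KO 1 lay among the Controls (-0.14 ± 0.17, or -0.07 without Runx1-KO 2). Ncaph, the subunit that bridges the ATPases, stood at 156, 128 and 136 against 193, 175 and 184 (-0.40 ± 0.18, adjusted p = 0.418), and Ncapg had a difference of -0.58, or -0.37 without Runx1-KO 2. Ncapd2 stood at 817, 385 and 689 against 570.1, 553 and 667, so that Runx1-KO 1 and 3 were the highest arrays and Runx1-KO 2 the lowest, at 0.01 ± 0.32.

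The 58 genes were also ordered by how many leukemias labelled Runx1-KO lay below all Controls. In 35, or 60.3%, all 3 did, where 11.7% of all genes did so, with a median difference of -0.79, or -0.49 without Runx1-KO 2. In 13 genes, among them Aurka, Kif2c and Ect2, 2 arrays did, and the median of -0.50 became -0.08 without Runx1-KO 2. Those 13 are 22.4%, not far from the 17.8% of all genes in which 2 arrays did. In 9 genes, or 15.5% where 26.5% of all genes did, 1 array did. It was Runx1-KO 2 in 8 of them, with a median of -0.16 that became 0.15. In Anln 0 did, or 1.72% where 43.9% of all genes did. Against the mean of Runx1-KO 1 and 3, Runx1-KO 2 was lower in 57 of 58 genes, by 3.93-fold for Kif2c, a kinesin that depolymerises microtubules, 3.86-fold for Ect2 and 3.35-fold for Aurka, and by 1.04-fold for Cdk1. These genes and those described outside the naming rule, such as Plk4, Cdc20, Incenp and Ncapd2, were picked once their values were known. A fitted log2 difference of -1 or lower was found in 8 genes, or 13.8%, where 4.33% of all genes had one, namely Bub1b, Ttk, Espl1, Melk, Plk1, Dlgap5, Cdc25b and Prc1. For Plk1, below background in Runx1-KO 2, the bound of 1.86-fold does not reach 2-fold. That count was 2 without Runx1-KO 2 (4.77% of all genes), 21 without Runx1-KO 1 (6.60%) and 17 without Runx1-KO 3 (4.96%), and 6 to 11 without 1 Control array.

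All probe sets of the same genes were also counted, those used above included, so the count is not a separate reading. The 58 genes had 138 probe sets, of which 123 had the lower mean in Runx1-KO, or 89.1%, against 51.5% of all 34958 probe sets with 1 gene. Of 41 genes with more than 1 probe set, all were lower in 29 and they disagreed in 12, namely Foxm1, Aurka, Plk4, Nek2, Kif2c, Cenpa, Bub1b, Incenp, Kif23, Anln, Top2a and Ncapd2. With the second brightest probe set of each gene, or the same one where a gene had only 1, the median was -0.63 and Foxm1 turned to 0.072. With the mean of all probe sets the median was -0.61.

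Other genes of mitosis, together with 18 MuvB, MYB and E2F regulators of transcription, came from 5 lists that share no gene with the 58. Their median was nearer to 0, a difference that was not tested. Of 97 measured genes 77 were below 0, 0 passed over all genes, and 11 (11.3%) were lower and 0 higher at an unadjusted p under 0.05, where 7.01% and 5.62% of all genes were. The groups did not overlap in 29 of them in the lower direction, or 29.9%, and in 1 (1.03%) in the higher direction, where 11.7% and 9.17% of all genes did not. Their median difference was -0.28, or -0.12 without Runx1-KO 2, and Runx1-KO 2 was the lowest array for 63.9% of them. The size ran from -0.47 over 27 further spindle, cytokinesis and entry genes (23 below 0) and -0.34 over 27 centromere and outer kinetochore genes (23 below 0) to -0.21 over 18 MuvB, MYB and E2F regulators (12 below 0), -0.18 over 11 genes of cohesin (8 below 0) and -0.17 over 14 subunits and partners of the anaphase-promoting complex (11 below 0). In Runx1-KO 2 the median shift of these lists was -1.01, -0.66, -0.41, -0.30 and -0.21 in the same order, so its shift was smallest for cohesin and for the anaphase-promoting complex. TTTGAA was found in 34.1% of the 91 promoter windows matched for these genes.

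**Figure D4:**
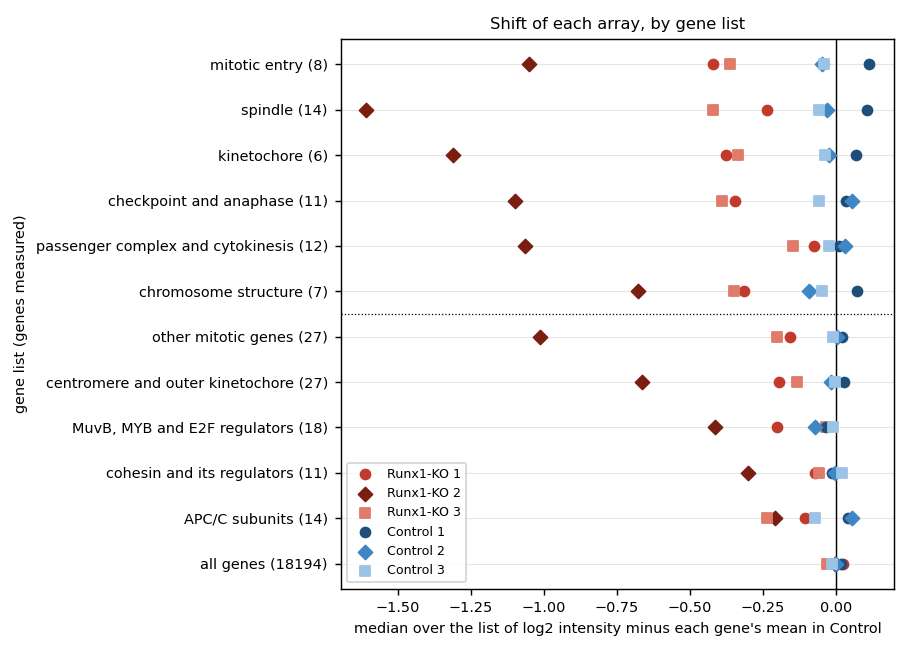
For each gene list (rows, with the number of genes measured), the median over its genes of log2 intensity minus the gene's Control mean, 1 point per array. Runx1-KO 2 lies lowest in every list shown but the anaphase-promoting complex and all genes, at -1.61 for spindle genes and -0.30 for cohesin, and all genes lie between -0.03 and 0.02.

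For the 3 genes of lowest p in these lists the probe set used was low in all 3 leukemias labelled Runx1-KO. Depdc1b stood at 237, 226 and 198 against 429.8, 462 and 479, and the arrays within each group were close together (-1.05 ± 0.18, or 2.08-fold lower, adjusted p = 0.152). Knstrn, which helps to hold sister chromatids and spindle poles, stood at 179, 163 and 156 against 318, 309.7 and 302 (-0.90 ± 0.17, adjusted p = 0.177). E2f6, an E2F protein that represses transcription, stood at 126, 77.5 and 83.7 against 233, 211 and 236 (-1.27 ± 0.24, or 2.42-fold lower, adjusted p = 0.179). In all 3 the groups did not overlap, and none passed. The other E2f6 probe set was higher, at 0.49, and of the 5 Knstrn probe sets 4 were lower and 1 was higher, at 0.21.

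The kinetochore scaffold gene Knl1 stood at 169.5, 112 and 246 against 409, 348 and 352 (-1.14 ± 0.31, adjusted p = 0.268), and Anapc11, the RING subunit of the anaphase-promoting complex, at 143, 178 and 160.4 against 253, 307 and 258 (-0.77 ± 0.19, adjusted p = 0.235). For Anapc11 the lowest array was Runx1-KO 1, and only 1 of its 3 probe sets was lower, the highest standing at 0.25. Cdc23 had a difference of -0.70, or -0.43 without Runx1-KO 2, with 2 of its 3 probe sets lower, and the centromere protein gene Cenpb had one of -0.45, with 1 of 2 lower. Of the cohesin genes, Esco2 stood at -0.71, or -0.19 without Runx1-KO 2, and Stag1 at -0.24. E2f5 was below background in Runx1-KO 3 and at least 1.66-fold lower (fitted difference -0.84), with 2 of its 3 probe sets lower.

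Markers of the cell types that a leukemia can hold were measured on the same arrays. The summed intensity of 10 mature neutrophil markers was 17808, 15866 and 14971 in Runx1-KO 1, 2 and 3 and 12491, 8428 and 9943 in Control 1, 2 and 3, with all 10 higher in the arrays labelled Runx1-KO (median log2 difference 1.15, 6 of 10 at an unadjusted p under 0.05, where 5.62% of all genes were higher at that level, and 0 past limma's adjusted test). The highest array was Runx1-KO 2 for 5 of the 10 markers and Runx1-KO 1 for the other 5. S100a8 and S100a9, with log2 differences of 0.50 and 0.52, were the brightest and made up most of each sum. Over 7 monocyte and macrophage markers the sum was 7513 to 8850 in Control and 5300 to 6654 in Runx1-KO 1 to 3, with 5 of 7 lower (median -0.89). F13a1, which was not lower (0.08), was the brightest of the 7 on every array. The sum of 11 erythroid markers was 5261 in Control 1 and 97.1 to 251 in the other 5 arrays, and Alas2, Rhag and Kel were below background on all of those 5. Over 5 promyelocyte markers the groups overlapped, at 13961 to 15573 against 11044 to 19093. Sums of 6 T and NK cell markers were 48.9 to 85.1 against 115 to 200. Cd3e, Cd3d, Cd3g, Cd5 and Gzma lay below background on all arrays labelled Runx1-KO. In Control 1, 2 and 3, 6, 4 and 2 of the 6 lay above it, so these sums are near the floor in Control as well. For 5 B cell markers the sums were 143 to 281 against 188 to 251, with Pax5 below background on all 6 arrays. Sums of 4 megakaryocyte markers were 204 to 470 against 135 to 257 and of 3 progenitor markers 359 to 488 against 239 to 755. The part of these cell types, and of the higher Gapdh ratio in Runx1-KO 1, in the mitotic gene difference was not tested. Without Control 1 the median difference of the mitotic genes was -0.60 and without Runx1-KO 1 it was -0.70.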

How the data were processed

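Total RNA was biotin-labelled as fragmented cDNA with a NuGEN Ovation kit, per the labels' protocols, and read on 1-colour arrays. The authors deposited 1 linear intensity per probe set, on a common scale (array medians 24.4 to 26.0). How the authors summarised, background-corrected and normalized them was not stated. Of 45101 probe sets 34958 had 1 gene symbol in the platform annotation, and the one with the highest mean log2 per gene gave 18194 genes.

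Log2 values were compared with limma 3.58.1 in R 4.3.3 (lmFit, eBayes, two-sided, no covariate or filter), adjusted by Benjamini-Hochberg over all genes at 0.05. The code was tested on simulated data. Genes named with full values were those past the threshold, the 3 of lowest p and the brightest of each role, Mki67, Top2a, Cdk1, Ccnb1, Plk1 and Foxm1, and the 2 of lowest p in each further list. The genes and lists were chosen with earlier results of these data known. A signal at or below the background limit was raised to it for an "at least" fold, which leaves the error of the fit aside. Alternatives covered scaling, filters, probe sets, variance models, a replicate block and left-out arrays. With 3 arrays per group, their number limits the precision.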

Additional observations from a re-analysis of the deposited data

How the results depend on the processing

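The count of mitotic genes past an adjusted p of 0.05 was 0 as reported and under all 18 alternatives, 1 of which set the threshold at 0.1, and the lowest adjusted p among the 25 genes named with full values was 0.0973, with array weights. The median difference stayed below 0 throughout, from -0.80 without Runx1-KO 3 to -0.33 without Runx1-KO 2. Of the 25 named differences 1 changed sign, that of Foxm1, at 0.072 with the second brightest probe set. Mitotic genes at an unadjusted p under 0.05 numbered 27 with an offset of 16 before the log2 and 26 with a variance trend and robust fitting, against 17. The shares of all genes at that level under these settings are not given here, so the higher counts are not a result about the mitotic genes. With 1 array left out the count was 5 to 24, where 4.59% to 9.55% of all genes were lower at that level. The checkpoint and anaphase median was -0.95 without Runx1-KO 3 and ran from -0.95 to -0.33 over left-out arrays. The count over all genes, 16, was 64 with the offset, 62 over genes with a mean log2 of at least 6, 34 over genes above background on at least 3 arrays, 8 with the second brightest probe set, 104 with the trend, 71 with array weights, 36 at an adjusted p under 0.1, 2 to 3 with 1 array left out and 0 without both arrays numbered 1. With the replicate number as a block it was 0 and the mitotic genes past the threshold were 0. The mitotic genes at an unadjusted p under 0.05 were then 15, a count without the share of all genes beside it. The deviations of same-numbered arrays from their group means correlated at -0.01, -0.09 and 0.04. With 3 arrays per group such values cannot settle whether the numbers pair the arrays. The causes of these changes were not tested.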
